A study of Mus musculus with 66 samples.

Results

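The 10 genes described here belong to the immediate early response of neurons: Fos, Fosb, Junb, Egr1, Egr2, Egr3, Egr4, Npas4, Nr4a1 and Arc. They were chosen by gene symbol, with earlier results of these data known. All 10 were among the 30084 symbols of the count table, and all 10 were among the 16145 genes left by a filter on low counts. Their expression was followed in each of 66 RNA sequencing libraries from cultured neurons, first by replicate number within each sex and then after each of 9 knockdowns.

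Every culture came from wildtype e16.5 mouse embryos, and male and female cultures were kept apart. The treated cultures received lentivirus with a short hairpin RNA (shRNA) against the transcription factor Tbr1, the Mediator subunit Med13l, the DNA methyltransferase Dnmt3a, the chromatin remodeller Chd8, or Ash1l, Kdm6b, Kmt2c, Mbd5 or Setd5, at doses that the labels give as lowering the target to about 50% of its level. The controls were a nontargeting shRNA and cultures without virus, so that the no virus group is the only one that did not carry a lentivirus. All cultures were grown in supplemented neurobasal medium and lysed at culture day 10. For the infection this medium was replaced by medium without supplements, and in the infected cultures the virus was removed at day 6. Each of the 22 combinations of group and sex had 3 libraries, numbered 1 to 3. The labels do not say what a number stands for, and nothing in them says that equal groups came from separate animals or cultures, so p-values measure the spread between these samples, which may be technical.

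Immediate early genes are transcribed soon after a stimulus, from transcription factors that are already present, before any new protein is made. In neurons, synaptic activity and calcium entry act on them through the cAMP response element binding protein CREB, serum response factor with its ternary complex partners, and MEF2 factors. Their RNA is short-lived, so their level follows the recent state of a culture, and the factors they encode then act on a later set of genes. Of the 10, 9 encode transcription factors. Arc encodes a synaptic protein that takes part in the removal of AMPA receptors from the membrane.

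The promoters of 5 members are shown because these are the genes whose libraries stood in a single order in every female group, as described below. Sequences are from RefSeq on GRCm38.p6, the patch release of mm10. For Fos (chr12:85473640-85473889, plus strand), Fosb (chr7:19310046-19310295, minus strand), Nr4a1 (chr15:101266596-101266845, plus strand) and Egr2 (chr10:67537619-67537868, plus strand) the 250 bases before the RefSeq start site are printed. For Npas4 only 30 bases are printed (chr19:4990128-4990157, minus strand), since its window lies in an annotated exon of another transcript. Capitals mark matches, on either strand, to the core of the cAMP response element TGACG, to the TATA box TATAAA and to the CArG box, which is bound by serum response factor.
Fos: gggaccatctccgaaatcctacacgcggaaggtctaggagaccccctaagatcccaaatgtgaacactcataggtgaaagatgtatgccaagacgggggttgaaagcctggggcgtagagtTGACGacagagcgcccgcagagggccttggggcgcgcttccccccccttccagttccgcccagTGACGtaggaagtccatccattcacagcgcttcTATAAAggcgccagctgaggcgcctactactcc
Fosb: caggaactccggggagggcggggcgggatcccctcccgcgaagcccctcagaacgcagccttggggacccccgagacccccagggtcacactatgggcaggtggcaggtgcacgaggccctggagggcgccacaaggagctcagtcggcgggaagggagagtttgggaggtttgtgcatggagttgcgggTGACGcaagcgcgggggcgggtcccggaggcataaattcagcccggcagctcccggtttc
Nr4a1: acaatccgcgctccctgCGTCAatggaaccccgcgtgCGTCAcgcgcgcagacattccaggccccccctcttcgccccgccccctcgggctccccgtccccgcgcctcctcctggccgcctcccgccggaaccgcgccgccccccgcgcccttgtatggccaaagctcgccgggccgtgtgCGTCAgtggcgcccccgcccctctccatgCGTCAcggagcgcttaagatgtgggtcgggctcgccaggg
Egr2: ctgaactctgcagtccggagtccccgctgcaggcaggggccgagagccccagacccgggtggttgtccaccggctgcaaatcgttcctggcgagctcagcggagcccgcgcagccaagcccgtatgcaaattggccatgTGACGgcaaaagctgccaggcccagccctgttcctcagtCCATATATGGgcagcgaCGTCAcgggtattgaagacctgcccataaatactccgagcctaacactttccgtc
Npas4: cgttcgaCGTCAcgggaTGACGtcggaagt

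A promoter window was used for 7 of the 10 members, and none for Egr1, Egr3 and Arc. Windows on chromosome 18, where Egr1 lies, were left out for the members. The core TGACG, or its reverse complement CGTCA, occurred in 7 of 7 member windows and in 17.7% of 32817 windows of the same length. Its first base lay 129 and 66 bases before the start in Fos, 60 in Fosb, 111 and 55 in Egr2, 179 and 169 in Npas4, and 233, 213, 69 and 40 in Nr4a1. The remaining windows, those of Junb and Egr4, also held it, at 106 bases and at 177 and 109 bases. The full palindrome TGACGTCA, which contains the core, was in 0 of 7 windows and in 1.55% of all windows. TATAAA was in the Fos window only, 33 bases before the start (12.4% of all windows), and a CArG box was in the Egr2 window only, at 72 bases (1.47%). None of these 7 windows held the AP-1 motif TGANTCA (6.75%), the EGR motif GCGTGGGCG (0.536%) or a MEF2 site (2.92%). These matches describe letters in the windows and not binding.

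Library totals ranged from 13634872 to 66074822 counts, and member counts from 12 (Fosb) to 9264 (Fos) in a library. The summed level of 10 neuronal markers lay at a median between 5839 and 6785 CPM (counts-per-million) for each number and sex, and none of these markers was at 0 in any library. Of 8 microglial markers, P2ry12, C1qa, C1qb and Tmem119 had a median of 0 CPM. Cx3cr1, Ptprc, Csf1r and Aif1 had medians of 0.0297, 0.158, 0.406 and 1.11 CPM, and Aif1 was detected in every library. In the check of the knockdowns, the targeted gene's group mean was at 22.3% to 54.3% of the nontargeting mean. There were 3 libraries that went against a label. In the male library labelled Setd5 shRNA replicate 1, Setd5 stood at 141 CPM and Kdm6b at 23.1 CPM, where the male nontargeting libraries had 133 to 149 and 55.1 to 64.9 CPM. In the male library labelled Kdm6b shRNA replicate 1, Setd5 stood at 44.9 CPM and Kdm6b at 39.9 CPM, against 17.2 and 17.2 CPM of Kdm6b in the other libraries of its group. The female library labelled Setd5 shRNA replicate 1 had 612 counts of the Y-linked gene Ddx3y against at most 12 in the other 32 female libraries. Without these 3 libraries, 0 members were called after any shRNA in either sex, 9 were called by number in females and 5 in males.

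The largest log2 differences of these genes were between replicate numbers, up to 3.88 for Fosb, where those of an shRNA against its controls reached −1.39, also for Fosb. In female cultures, Fos, Fosb, Npas4, Nr4a1 and Egr2 were lowest in number 1, intermediate in number 3 and highest in number 2 in 11 of 11 groups. This order, in all 11 groups, was found in 381 of 16145 genes, or 2.36%. In male cultures, Fos, Fosb, Npas4, Nr4a1 and Junb were lower in number 3 than in number 1, while Egr3 was higher there. After the 9 knockdowns, 0 of 180 tests of a member against the nontargeting libraries passed the threshold without the replicate number in the model. Over all genes, 2.28% of such tests passed in males and 2.68% in females. With the number as a block, 4 of 90 passed in males (7.01% over all genes) and 1 of 90 in females (7.8%). Of the 4, 3 were in a comparison whose numbers did not all pass a check of pairing. The numbers were tested over 11 libraries each, with group as a term in the model, using edgeR's quasi-likelihood test and Benjamini-Hochberg adjustment over all genes. In all, 9 of 10 members also differed between the sexes in how the numbers stood (68.9% of all genes). Since the labels do not say that equal numbers of the 2 sexes share anything, this is not a test of an effect of sex. The 3 differences between numbers share libraries with one another. In bulk samples, fewer cells with a high level and less RNA in each cell cannot be told apart.

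**Figure D1:**
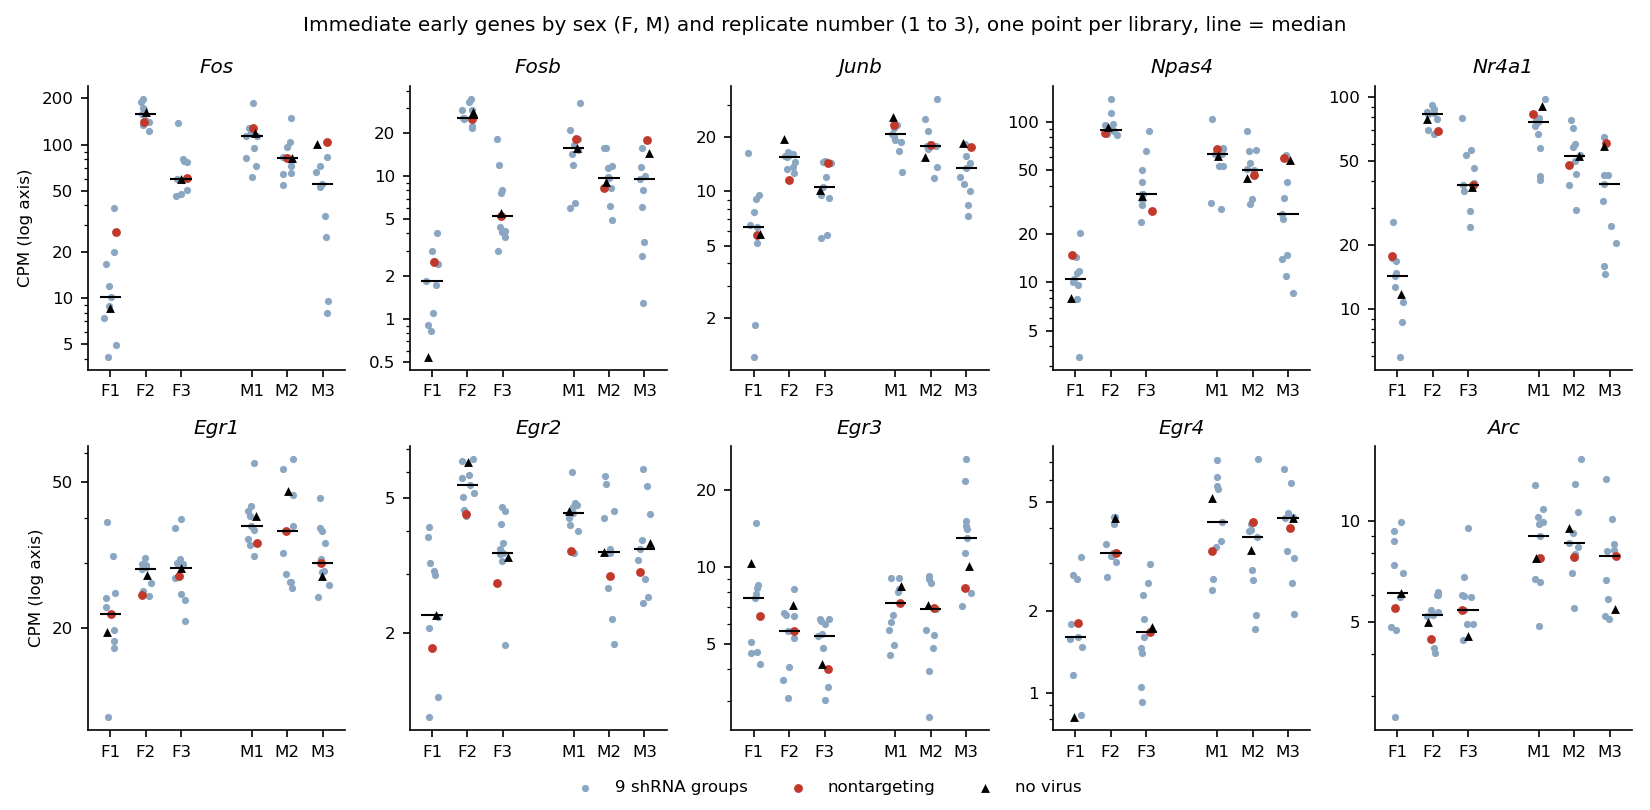
Expression of the 10 members in CPM (log axis) in each library, by sex and replicate number (F1 to F3 female, M1 to M3 male); dots are the 9 shRNA groups, red marks nontargeting, black triangles no virus, and the line is the median of 11 libraries. Fos has a median of 10.1 CPM in female number 1 and of 159 CPM in number 2, while Arc has medians between 5.22 and 6.07 CPM in females.

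Fos and Fosb encode the partners that join a Jun protein in the transcription factor AP-1. In female libraries, Fos lay between 4.12 and 38.7 CPM in number 1 (median 10.1, n = 11), between 122 and 198 CPM in number 2 (median 159) and between 46.4 and 139 CPM in number 3 (median 60.0). All libraries of numbers 2 and 3 were above all libraries of number 1, for which Kmt2c shRNA gave the highest value and Dnmt3a shRNA the lowest. The log2 difference of Fos was 3.62 ± 0.309 (SE) between numbers 2 and 1, a fold of 12.3 (adjusted p = 1.81e-13), and ranked 49 of 16145 genes by size.

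Fosb ran between 0.544 and 3.99 CPM in female number 1 (median 1.84), between 21.7 and 35.0 CPM in number 2 (median 25.8) and between 3.00 and 18.3 CPM in number 3 (median 5.28). For this gene the libraries of number 2 stood above every other female library. Its log2 difference between numbers 2 and 1 was 3.88 ± 0.311, a fold of 14.7 (adjusted p = 2.58e-14, rank 35), and that between numbers 2 and 3 was 2.13 ± 0.275 (adjusted p = 2.40e-08). Junb, a Jun family member of AP-1, had a narrower span, with medians of 6.33, 15.4 and 10.5 CPM in numbers 1, 2 and 3. Its libraries overlapped between numbers, and number 2 was above number 1 in 11 of 11 groups, with a log2 difference of 1.28 ± 0.202 (adjusted p = 4.62e-07). Its difference between numbers 2 and 3, 0.50 ± 0.195 (adjusted p = 0.0304), did not pass without Ash1l shRNA female replicate 3 (adjusted p = 0.0837).

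Npas4 encodes a bHLH-PAS factor induced by calcium entry that controls inhibitory synapse genes, and Nr4a1 encodes an orphan nuclear receptor. Female Npas4 lay between 3.43 and 20.4 CPM in number 1 (median 10.5), between 82.5 and 139 CPM in number 2 (median 89.4) and between 23.6 and 87.9 CPM in number 3 (median 35.2). Female Nr4a1 lay between 5.95 and 25.6 CPM in number 1 (median 14.2), between 66.7 and 91.2 CPM in number 2 (median 82.6) and between 24.3 and 79.8 CPM in number 3 (median 38.3). Both had no overlap between numbers 1 and 2, Npas4 had none between numbers 1 and 3, and the high end of number 3 was Kdm6b shRNA for both, as it was for Fos and Fosb. Between numbers 2 and 1 the log2 difference was 3.14 ± 0.250 for Npas4 (adjusted p = 2.10e-14, rank 78) and 2.53 ± 0.195 for Nr4a1 (adjusted p = 6.41e-15, rank 151). Between numbers 3 and 1 it was 2.39 ± 0.301 for Fos, 1.89 ± 0.245 for Npas4, 1.75 ± 0.315 for Fosb and 1.61 ± 0.192 for Nr4a1, all with adjusted p of at most 1.50e-05.

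The Egr genes encode zinc finger factors that bind GC-rich sites, and the 4 of them did not share a pattern. Egr2 lay between 1.13 and 4.12 CPM in female number 1 (median 2.27), between 4.43 and 6.52 CPM in number 2 (median 5.49) and between 1.85 and 4.71 CPM in number 3 (median 3.45). Numbers 1 and 2 did not overlap, with a log2 difference of 1.16 ± 0.131 (adjusted p = 4.13e-11). Egr4 was above its values in numbers 1 and 3 in number 2 of 11 of 11 groups, with medians of 1.60, 3.26 and 1.67 CPM in numbers 1, 2 and 3. Its log2 difference was 1.03 ± 0.201 between numbers 2 and 1 (adjusted p = 1.40e-05) and 0.00 ± 0.211 between numbers 3 and 1. Egr1 had overlapping libraries with medians of 21.8, 28.9 and 29.2 CPM, and log2 differences of 0.33 ± 0.121 between numbers 2 and 1 (adjusted p = 0.0146, and 0.0584 without Dnmt3a shRNA female replicate 1) and 0.38 ± 0.121 between numbers 3 and 1 (adjusted p = 0.00902).

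Egr3 went the other way in female cultures. It lay between 4.19 and 14.9 CPM in number 1 (median 7.60), between 3.10 and 8.18 CPM in number 2 (median 5.62) and between 3.02 and 6.29 CPM in number 3 (median 5.37), with overlap between all numbers. It was lower in number 3 than in number 1, with a log2 difference of −0.57 ± 0.187 (adjusted p = 0.0110). That call was lost in the libraries of the 9 shRNA targets alone (−0.48, adjusted p = 0.0690) and kept in the control libraries alone (−1.02, adjusted p = 0.00338). Between numbers 2 and 1 the difference was −0.37, with a 95% interval from −0.74 to 0.01 (adjusted p = 0.0807). Arc had medians of 6.07, 5.22 and 5.42 CPM, and its difference between numbers 2 and 1 was −0.28, with an interval from −0.56 to 0.00 (adjusted p = 0.0753).

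Over the 3 female numbers, 9 of 10 members passed the test for any difference, all but Arc (adjusted p = 0.178), where 72.6% of all genes did. Between numbers 2 and 1, 8 members were higher and 0 lower, against 65.6% of all genes called in either direction and 32.7% called higher. Between numbers 3 and 1, 7 were higher and 1 was lower (46% of all genes called), and between numbers 2 and 3, 7 were higher and 0 lower (50.9%). A large part of all genes was thus called between female numbers, and the members' counts are to be read against it. The median absolute log2 difference between numbers 2 and 1 was 1.22 over the members and 0.38 over all genes. All libraries of number 2 were above all libraries of number 1 for 5 members, against 5.23% of all genes. All libraries of number 3 were above those of number 1 for 2 members (0.632%), and number 2 was above number 3 without overlap for 1 member (1.46%).

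**Figure D2:**
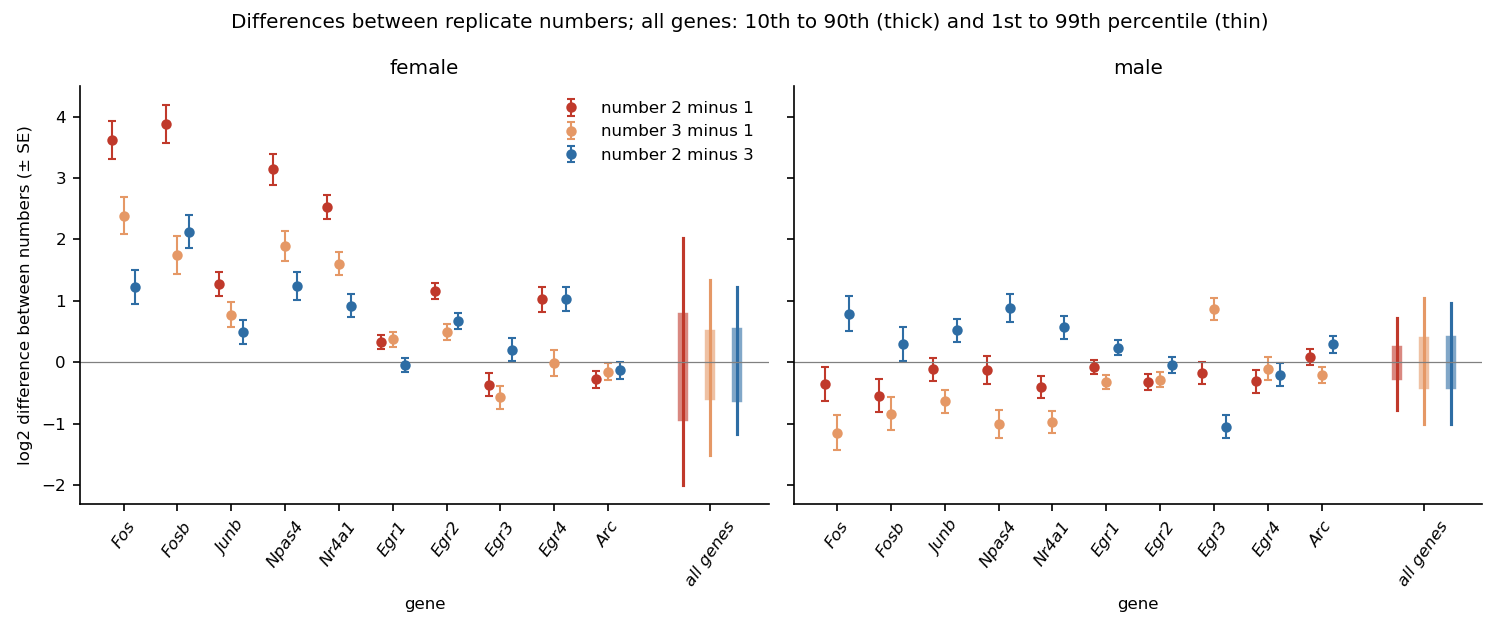
Log2 differences of the members between replicate numbers (points, with SE as bars) in female and male cultures, beside percentiles of the same differences over all 16145 genes. The female difference between numbers 2 and 1 is 3.88 for Fosb and 3.62 for Fos, and no member passed the test between male numbers 2 and 1.

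Male cultures had another pattern. Fos lay between 61.7 and 186 CPM in number 1 (median 114, n = 11), between 54.1 and 150 CPM in number 2 (median 81.0) and between 7.94 and 104 CPM in number 3 (median 55.3). No male number was separated from another for Fos, and its highest male value came from the male library labelled Setd5 shRNA replicate 1. Number 1 was the highest of the 3 in 9 of 11 groups, and number 3 was above number 1 in 0. The log2 difference between numbers 3 and 1 was −1.14 ± 0.280 for Fos (adjusted p = 0.00202), −1.01 ± 0.232 for Npas4 (adjusted p = 0.00104), −0.97 ± 0.183 for Nr4a1 (adjusted p = 8.80e-05), −0.84 ± 0.268 for Fosb (adjusted p = 0.0182) and −0.63 ± 0.189 for Junb (adjusted p = 0.0108). Male Fosb had medians of 15.8, 9.81 and 9.53 CPM in numbers 1, 2 and 3, Junb 20.6, 17.8 and 13.4 CPM, Npas4 62.7, 50.3 and 26.5 CPM, and Nr4a1 76.2, 52.3 and 38.7 CPM.

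Egr3 was highest in male number 3 in 10 of 11 groups. It lay between 4.53 and 9.06 CPM in number 1 (median 7.21), between 2.60 and 9.25 CPM in number 2 (median 6.88) and between 7.04 and 26.3 CPM in number 3 (median 12.9). Chd8 shRNA gave the highest of these libraries, and numbers 1 and 3 overlapped. The log2 difference of Egr3 was 0.87 ± 0.180 between numbers 3 and 1 (adjusted p = 0.000252) and −1.05 ± 0.182 between numbers 2 and 3 (adjusted p = 1.98e-05). Egr1 was lower in number 3 than in number 1, at −0.32 ± 0.118 (adjusted p = 0.0438), a call lost without Ash1l shRNA male replicate 1 (adjusted p = 0.141). Egr2, Egr4 and Arc did not pass between numbers 3 and 1.

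Of the 10 members, 6 passed the test for any difference between male numbers (28.7% of all genes), and 7 passed between numbers 3 and 1, with 1 higher and 6 lower (24.4%). Between numbers 2 and 3, 5 passed (28.1%): Npas4 at 0.88 ± 0.235, Fos at 0.79 ± 0.282, Nr4a1 at 0.57 ± 0.184 and Junb at 0.52 ± 0.191 were higher in number 2, and Egr3 was lower. The Fos call was lost without Chd8 shRNA male replicate 3 (adjusted p = 0.0794), and those of Junb (0.111) and Nr4a1 (0.0556) without Ash1l shRNA male replicate 3. Between numbers 2 and 1, edgeR called 0 members (0.378% of all genes), with 3 at an unadjusted p under 0.05 and 0 by DESeq2. No member had all libraries of 1 male number above all of another in the orders examined, 2 above 1, 3 above 1 or 2 above 3 (0%, 0.13% and 0.322% of all genes).

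The low male values of Fos, Fosb and Npas4 lay in shRNA libraries of number 3 and not in its controls. In male number 3, Fos was at 104 CPM in the nontargeting library and 101 CPM in the no virus library, and between 7.94 and 83.5 CPM in the 9 shRNA libraries (median 52.8). The lowest were Ash1l shRNA at 7.94, Chd8 shRNA at 9.57, Med13l shRNA at 25.0 and Mbd5 shRNA at 34.4 CPM, and these had Egr3 at 15.1, 26.3, 21.6 and 14.1 CPM, against 8.26 and 10.1 CPM in the controls. Both controls were above all 9 shRNA libraries for Fos, but not for Fosb, Junb, Npas4 or Nr4a1. The share of all genes with such a separation was not counted. Nr4a1 was at 60.5 and 58.3 CPM in these controls and between 14.6 and 65.0 CPM in the shRNA libraries (median 32.4), with overlap. Npas4 was at 59.2 and 57.5 CPM in the controls and between 8.55 and 61.8 CPM after shRNA (median 24.7).

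Among the control libraries alone, nontargeting and no virus together, the male difference between numbers 3 and 1 was −0.29 for Fos (adjusted p = 0.822), −0.16 for Npas4, −0.08 for Fosb and 0.21 for Egr3. It was −0.56 for Nr4a1 (adjusted p = 0.117), −0.45 for Junb and −0.37 for Egr1, with Nr4a1 at 83.2 and 90.3 CPM in the 2 number 1 controls and at 60.5 and 58.3 CPM in those of number 3. In these libraries, Nr4a1 alone passed the test over the 3 numbers (adjusted p = 0.0215; 1.77% of all genes). Between numbers 2 and 3 the sign was turned in these libraries for Fos, at −0.31, Npas4, at −0.33, Nr4a1, at −0.23, and Junb, at −0.08. Whether shRNA and control libraries differ in this was not tested. The female pattern was present in the controls: 9 of 10 members passed over the 3 numbers there (50% of all genes), with Fos at 27.0, 140 and 60.5 CPM in nontargeting and at 8.52, 162 and 59.2 CPM in no virus libraries 1, 2 and 3.

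Replicate number held most of the spread of Fos, Fosb, Npas4, Nr4a1 and Egr2 within female groups. Of the within-group variance of log2 CPM over 33 libraries, 93.1% lay between numbers for Npas4, 92.4% for Fosb, 91.7% for Nr4a1, 91.2% for Fos and 81.8% for Egr2, against 64.7% for Egr4, 60.1% for Junb, 37.6% for Egr1, 26.2% for Egr3 and 12.5% for Arc. In male groups the share was highest for Egr3, at 64.8%, and was 57.0% for Nr4a1, 49.9% for Npas4, 47.9% for Fos and 31.2% for Fosb.

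How closely the members varied together within groups differed between pairs. Over the 33 libraries of a sex, with each group's mean removed, Fos, Fosb, Npas4 and Nr4a1 had Pearson r between 0.950 and 0.992 in females (median 0.978) and between 0.887 and 0.958 in males (median 0.944). The 22 other pairs without Egr3 or Arc had r between 0.372 and 0.911 in females (median 0.701). In males these pairs had r between 0.069 and 0.905 (median 0.282). Egr3 had a negative r with 7 of the 9 other members in each sex, down to −0.406 with Fos in females and −0.814 with Npas4 in males. Arc had a negative r with 6 of the 8 members other than Egr3 in females and with 0 of 8 in males. Points in these correlations share replicate numbers and library depth, and they are given as descriptions.

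**Figure D3:**
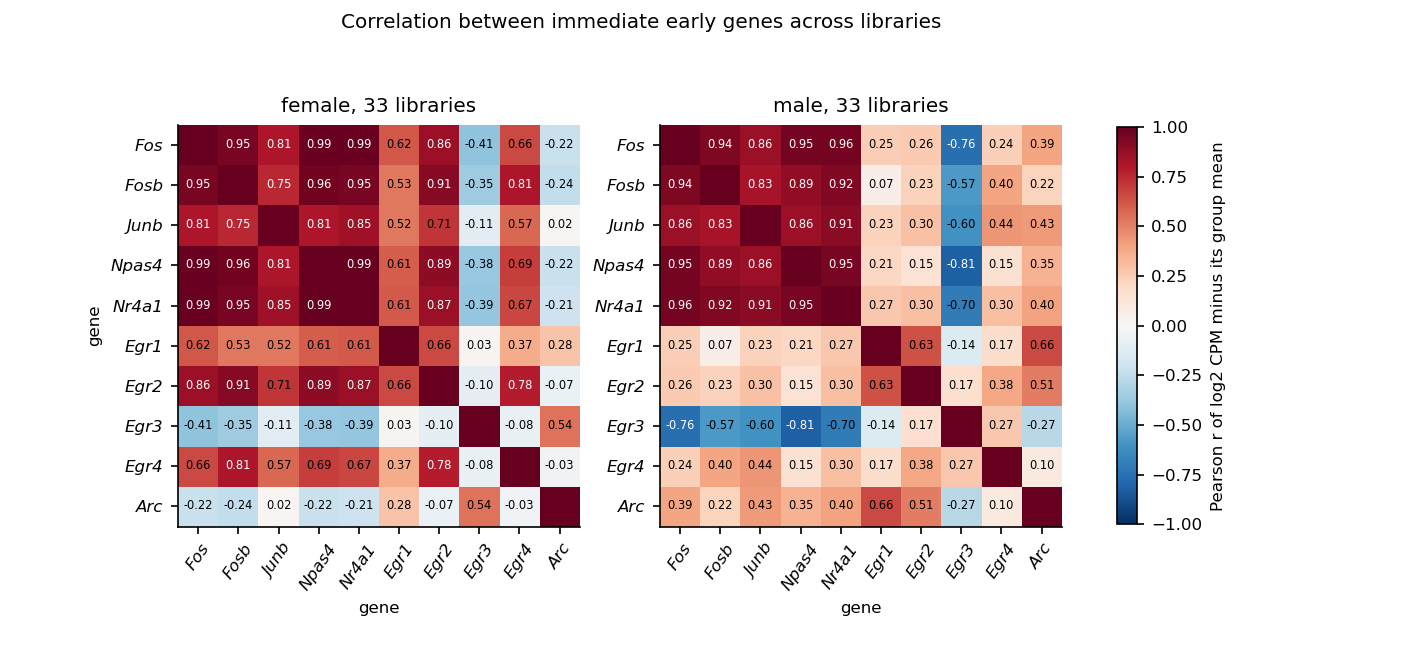
Pearson r between members over 33 libraries per sex, from log2 CPM with each group's mean removed; colour gives r from −1 to 1. Fos, Fosb, Npas4 and Nr4a1 form a block with a median r of 0.978 in females and 0.944 in males, and Egr3 is negative with 7 of 9 members in each sex.

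**Figure D4:**
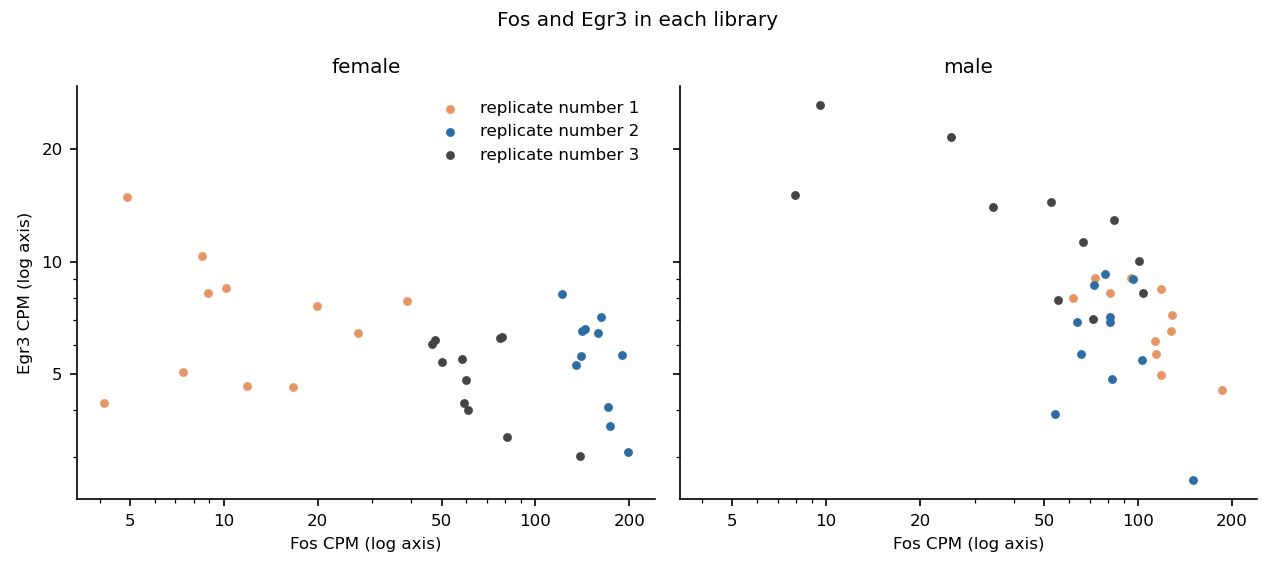
Fos against Egr3 in CPM (log axes) for each library, by sex, with replicate numbers by colour. The male number 3 libraries run to a Fos of 7.94 CPM and an Egr3 of 26.3 CPM, and the Pearson r of the group-centred values is −0.76 in males.

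The genes whose group-centred levels were most like the mean of the 10 members over 66 libraries were Vgf (r = 0.961), Gpr3 (0.955), Opn3 (0.949), Spry2 (0.948), Stk40 (0.946) and Ppp1r15a (0.942). They were picked for this likeness in the same libraries, so their differences between numbers partly follow from the choice. Vgf, which encodes a secreted neuropeptide precursor, lay between 30.3 and 135 CPM in female number 1 (median 55.7), between 387 and 589 CPM in number 2 (median 466) and between 107 and 319 CPM in number 3 (median 211). Like Fos, it had no overlap between numbers 1 and 2 (number 2 was above number 1 without overlap for 5.23% of all genes). The log2 difference between these numbers was 2.96 for Vgf, 2.30 for Gpr3, a constitutively active receptor that raises cAMP, 1.98 for Opn3, 1.67 for Spry2, an inhibitor of receptor tyrosine kinase signalling, 1.44 for Ppp1r15a and 0.99 for Stk40.

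Further genes of the pathway were taken from 3 lists. Between female numbers 2 and 1, where 65.6% of all genes passed, 32.7% higher and 32.9% lower, 30 of 34 other rapidly induced genes passed, 29 higher and 1 lower, with a median log2 difference of 1.05. Among them were Nr4a3, a relative of Nr4a1, at 2.96, Fosl2, a Fos relative, at 2.30, and Dusp6, a phosphatase of ERK, at 1.58. Of 22 genes of the later response, 20 passed, 15 higher and 5 lower (median 1.04), with Rgs4, which shortens G protein signals, at 1.68, Cbln4, a synapse organiser, at −1.90, and Penk, the enkephalin precursor, at −1.07. Of 23 upstream genes (receptors, kinases and transcription factors that act on the early genes), 18 passed, 11 higher and 7 lower (median 0.15), a share near that of all genes, with the NMDA receptor subunit gene Grin1 at 1.09, Elk4 at 0.98 and Crebbp at 0.75. Over all genes the median of this difference was −0.01.

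Between male numbers 3 and 1 24.4% of all genes passed, 11.8% higher and 12.6% lower. Of the 34 other rapid genes 17 passed, 2 higher and 15 lower, with Ccn1 at −1.11, Btg2 at −0.55 and Klf10 at 0.72. Of the 22 later genes 10 passed, 1 higher and 9 lower, with Nrn1 at −0.66, Npy at −0.40 and, as the one that was higher, Penk at 0.25. Of the 23 upstream genes 13 passed, 13 higher and 0 lower, with Mef2c, a factor that acts on early genes, at 0.58, the kinase gene Camk2a at 0.52 and the calcineurin subunit gene Ppp3ca at 0.50.

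Markers of other cells and depth also moved with the numbers. The summed level of 8 progenitor markers had medians of 69.9, 39.5 and 34.0 CPM in female numbers 1, 2 and 3. Of these markers, 7 of 8 were lower in number 2 than in number 1, where 65.6% of all genes were called in either direction and 32.9% lower. The sum of 8 astrocyte markers had medians of 342, 330 and 437 CPM in males and of 383, 422 and 365 CPM in females. In males, 6 of 8 were higher in number 3 than in number 1, where 24.4% of all genes were called in either direction and 11.8% higher. The sum of 8 vascular markers had medians of 41.9, 46.2 and 63.4 CPM in females and 55.5, 49.5 and 26.8 CPM in males, with Cldn5 and Cdh5 at a median of 0 CPM. Median depth was 25681971, 33411955 and 35441642 counts in female numbers 1, 2 and 3, and 31755628, 29779775 and 33425339 counts in males. The part of these in the members' differences was not tested.

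The knockdown comparisons ask whether lowering a chromatin or transcription regulator changes early gene expression in these cultures. The 3 libraries of a target were set against the 3 nontargeting libraries of that sex, which all 9 comparisons of a sex share. Of 90 tests per sex, edgeR called 0 in males (2.28% over all genes and comparisons) and 0 in females (2.68%). At an unadjusted p under 0.05 there were 2 in males and 2 in females, and DESeq2 called 0 in each sex. With the replicate number in the model the SE of Fos was near 0.52 in males and 0.54 in females, at the median over targets, against 1.06 without it, so that without the number a change of Fos had to be large to pass.

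**Figure D5:**
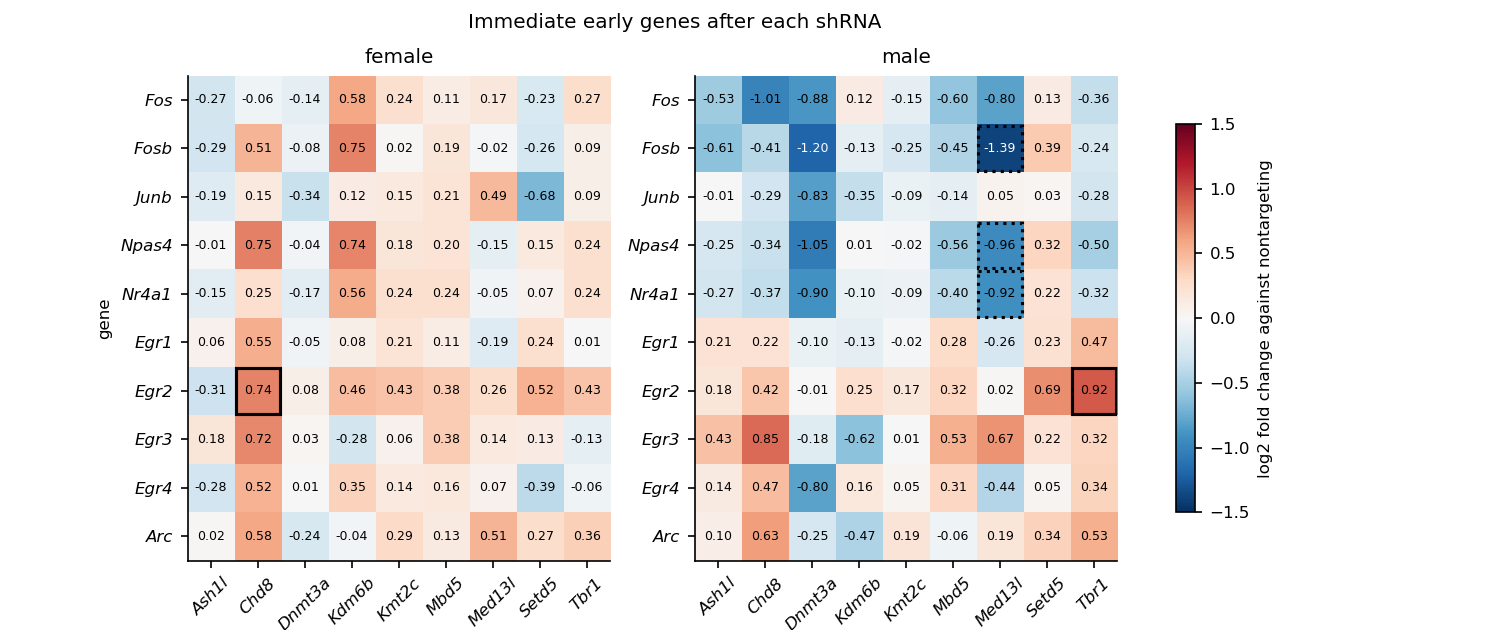
Log2 fold changes of the 10 members after each shRNA against nontargeting libraries, by sex; colour gives the fold change, a solid box marks an adjusted p under 0.05 with the replicate number in the model where numbers pair the libraries, and a dotted box the same where they do not. No test passed without the number, and solid boxes mark Egr2 after Tbr1 shRNA in males and after Chd8 shRNA in females, and dotted boxes Fosb, Npas4 and Nr4a1 after Med13l shRNA in males.

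In the comparisons whose replicate numbers pair the libraries, Egr2 had calls once the number entered the model as a block. After Tbr1 shRNA it was at 6.00, 5.80 and 6.10 CPM in male libraries 1, 2 and 3, against 3.50, 2.95 and 3.03 CPM with nontargeting shRNA. The groups did not overlap, and the 3 Tbr1 libraries were close to one another. The log2 fold change was 0.92 ± 0.412 (adjusted p = 0.889), and with the replicate block 0.92 ± 0.241 (adjusted p = 0.0273). In an edgeR fit of only the libraries compared, without the block, it was 0.93 (adjusted p = 0.0427). Egr2 after Chd8 shRNA was at 4.12, 6.52 and 4.71 CPM in female libraries, against 1.81, 4.49 and 2.81 CPM. These groups overlapped, but each Chd8 library was above the nontargeting library of its number. The log2 fold change was 0.74 ± 0.411 (adjusted p = 0.315), and with the replicate block 0.82 ± 0.245 (adjusted p = 0.0114). The replicate numbers paired the libraries in both comparisons, and with the block 1.75% of all genes were called for Tbr1 in males and 21.1% for Chd8 in females.

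Dnmt3a encodes a DNA methyltransferase that acts in neurons. After Dnmt3a shRNA in males, Fos was at 61.7, 54.1 and 55.3 CPM, against 129, 81.4 and 104 CPM with nontargeting shRNA. Fosb was at 6.47, 4.95 and 7.98 CPM against 18.3, 8.32 and 18.1 CPM, and Npas4 at 28.8, 30.5 and 24.7 CPM against 67.9, 46.5 and 59.2 CPM. All 3 knockdown libraries were below all 3 nontargeting libraries for 6 members, these 3 and Junb, Egr4 and Nr4a1, where 11% of all genes were. The log2 fold changes were −0.88 ± 1.07 for Fos, −1.20 ± 1.16 for Fosb, −1.05 ± 0.954 for Npas4, −0.90 ± 0.786 for Nr4a1 and −0.83 ± 0.527 for Junb, and none passed. When these 6 libraries were fitted alone, so that the spread came from them only, 4 members passed (1.28% of all genes were called lower): Npas4 (adjusted p = 0.0076), Fos (0.0189), Nr4a1 (0.0423) and Junb (0.0459). In females, Dnmt3a shRNA gave Fos at 4.12, 144 and 58.3 CPM against 27.0, 140 and 60.5 CPM, which overlapped.

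Arc and Egr1 after Chd8 shRNA had the other unadjusted p under 0.05. Arc was at 12.8, 15.3 and 8.11 CPM in males against 7.76, 7.79 and 7.87 CPM, without overlap, and the log2 fold change was 0.63 ± 0.279 (adjusted p = 0.166). In females Arc was at 9.30, 4.04 and 9.53 CPM against 5.51, 4.43 and 5.42 CPM, at 0.58 ± 0.283 (adjusted p = 0.232), and passed once Chd8 shRNA female replicate 2 was left out (0.88, adjusted p = 0.0386). Egr1 was at 38.9, 29.8 and 39.7 CPM in females against 21.8, 24.6 and 27.7 CPM, without overlap, at 0.55 ± 0.263 (adjusted p = 0.219). Over the 90 male tests, 10 had all knockdown libraries above all nontargeting libraries and 10 had all below (10.7% and 11.8% of all genes). Over the 90 female tests these counts were 2 and 0 (5.32% and 6.06%).

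Over the 10 members, the median log2 fold change lay in males between −0.81 (Dnmt3a) and 0.22 (Setd5, which includes the library that went against its label), and in females between −0.17 (Ash1l) and 0.53 (Chd8), where the median over all genes lay between −0.01 and 0.01. In males the lowest value of any member was −1.39 ± 1.17, for Fosb after Med13l shRNA, and the highest was 0.92 for Egr2 after Tbr1 shRNA. In females the range was from −0.68 for Junb after Setd5 shRNA to 0.75 for Npas4 after Chd8 shRNA. Junb after Setd5 shRNA was at 1.22, 13.3 and 5.71 CPM, and its lowest value was that of the female library that went against its label. Fos after Chd8 shRNA in males was at 81.3, 65.5 and 9.57 CPM, and after Med13l shRNA at 72.8, 82.4 and 25.0 CPM, so the low value was that of library 3 in both.

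Some other genes of the pathway passed in these comparisons, at shares that are to be read against the 2.28% of all tests in males and 2.68% in females. Of the other rapid genes, 5 of 306 tests passed in males and 5 of 306 in females, and Jun, the main partner of Fos in AP-1, was among them: it rose after Chd8 shRNA by 0.76 in females (adjusted p = 0.00219) and by 0.56 in males (adjusted p = 0.0292), and fell after Setd5 shRNA in females, at −1.05 (adjusted p = 0.000288), in a group that includes the female library that went against its label. Fosl1, another Fos relative, passed at −1.09 in males and −0.87 in females after Med13l shRNA. Of the upstream genes, 7 of 207 tests passed in males and 6 of 207 in females. Among those that passed in both sexes, Map2k1, the kinase gene above ERK, was at −1.57 and −1.51 after Chd8 shRNA in males and females, Mapk3, the gene of one ERK, at −0.74 and −0.85, and after Med13l shRNA Mef2a was at 0.69 and 0.71, Mef2d at −0.84 and −0.87, and Mrtfb, a coactivator of serum response factor, at −0.64 and −0.88. Of the later genes, 2 of 198 passed in each sex, with Nrn1 at 0.77 and 1.07 after Med13l shRNA. That members and these lists differ in how often they were called was not tested.

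The mean of the 9 shRNA effects passed for 0 members in either sex (0% of all genes), with 0 at an unadjusted p under 0.05 and 0 by DESeq2. Nontargeting against no virus libraries gave 0 calls in either sex (0%), with 0 at an unadjusted p under 0.05 and 0 by DESeq2. Their log2 differences lay between −0.31 and 0.18 in males, and in females between −0.42 and −0.02. Between male and female nontargeting libraries 0 members passed (0.0434%), and 1, Arc, had an unadjusted p under 0.05, at 0.61 ± 0.283 higher in males. All 10 members had a positive value in that comparison, from 0.04 for Egr2 to 0.88 for Junb. None of the 90 tests of whether an shRNA effect differed between the sexes passed by edgeR or DESeq2 (0.00206%), and 0 had an unadjusted p under 0.05.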

How the data were processed

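Polyadenylated RNA of 66 cultures was sequenced from a stranded kit (TruSeq Stranded, per the labels' protocols). The authors deposited 1 table of raw read counts by gene, of 48716 entries; STAR, featureCounts and mm10 are named in the submitters' processing notes, and their versions are not given in the sources used here. Entries without a symbol (18483, between 0.690% and 1.41% of a library's counts) entered neither library sizes nor tests, and 149 that repeated a symbol were summed. The table had 6 library columns that were not used. The control columns carry a luciferase name and were matched to the group that the labels call nontargeting. Odd numbers made up 26.7% of values from 1 to 20 and 49.1% of those of at least 1000, so halved counts were an alternative.

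The tests used edgeR 4.0.16 in R 4.3.3: filterByExpr, TMM scaling (factors 0.874 to 1.06), 1 mean per group over all 66 libraries, and the robust quasi-likelihood F test. Within a comparison, Benjamini-Hochberg adjustment ran over 16145 genes, at a threshold of 0.05. Differences between numbers came from a model with group and number within sex, and SE from the test statistic. CPM are relative to TMM library sizes, and log2 CPM used a prior count of 2. DESeq2 1.42.0 was an alternative, as were other filters, scalings, prior counts, subsets of libraries and leaving out each library. Counts of amplified reads are not independent molecules. Every pair of libraries in a group differed beyond sampling noise (chi-square per gene 7.92 to 386). In simulated data, the comparison of Chd8 shRNA with nontargeting in males recovered 67.5% of 200 genes changed 2-fold and 97% of those changed 4-fold, and that of female numbers 2 and 1 recovered 96% and 99.5%. The 200 genes were drawn from expressed genes at large, each with its own spread. Their recovery does not give that of the members, whose SE against nontargeting in males had a median of 0.511, and of 1.06 for Fos.

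Whether numbers pair libraries was checked by the correlation over genes of a library's deviations from its group mean with those of the same-numbered nontargeting library. Each was over 0.1 in 8 of 9 female knockdowns (not Kdm6b) and in 6 of 9 male ones (not Ash1l, Kdm6b or Med13l), which were taken as paired; the lowest paired r was 0.104. The members, gene lists and marker lists were chosen with earlier results of these data known. Genes named beside the members were the targets and, for each list and sex, the 3 with the smallest p between numbers. The list genes called in most knockdowns and the 6 genes with the highest correlation to the mean of the 10 members were also named.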

Additional observations from a re-analysis of the deposited data

Results flagged for a closer look

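The differences between replicate numbers were not the same in the 2 sexes, by the test of the difference itself (sex by number in edgeR's quasi-likelihood test, Benjamini-Hochberg adjusted). It passed for 9 of 10 members, where 68.9% of all genes passed. For Nr4a1 the adjusted p was 9.98e-13, for Fosb 1.72e-11, for Npas4 2.98e-11 and for Fos 3.79e-11, and these had number 1 lowest in 11 of 11 female groups and in 0 of 11 male groups. It was 4.33e-09 for Egr2, 1.22e-05 for Junb, 2.59e-05 for Egr4 and 0.00146 for Egr1. For Egr3 it was 5.49e-06, with number 3 highest in 0 of 11 female and in 10 of 11 male groups. Arc did not pass (adjusted p = 0.0986). The labels do not say whether equal numbers of the 2 sexes share anything, so the test does not show an effect of sex.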

How the results depend on the processing

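With the replicate block, the members called after shRNA were 4 of 90 in males (1 higher, 3 lower; 7.01% of all genes) and 1 of 90 in females (7.80%), against 0 in each without it. In males these were Egr2 after Tbr1 shRNA and, after Med13l shRNA, Fosb at −1.45, Npas4 at −1.20 and Nr4a1 at −1.01. For Med13l in males not every number passed the check of pairing (r from 0.019 to 0.139, limit 0.1). In males the block changed no other call. A fit of only the libraries compared called 5 in males (1 higher, 4 lower). The higher one was Egr2 after Tbr1 shRNA (0.93, adjusted p = 0.0427). Lower were Fos, Junb, Npas4 and Nr4a1 after Dnmt3a shRNA, where 1.28% of all genes were called lower. The share of all genes over all such fits was not counted. Leaving out 1 library at a time gave 0 to 1 calls in females and 0 in males. With control libraries only, 1 member passed between male numbers, against 6, and the values that turned sign there were, between numbers 2 and 3, Fos at −0.31, Junb at −0.084, Npas4 at −0.33 and Nr4a1 at −0.23, and, between numbers 3 and 1, Opn3 at 0.022; the cause was not tested. Leaving out 1 library, 8 to 9 members passed between female numbers, 5 to 7 between male numbers and 9 to 10 for the difference between sexes. Of the single values between numbers under all alternatives, 461 kept their direction and side of the threshold, 32 lost and 2 gained a call, and 5 turned. Depth limits Fosb, Egr2 and Egr4 most, with 12, 34 and 14 counts in their lowest libraries.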
